A study of Homo sapiens with 5 samples.

Results

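The 10 genes described here are neuronal genes known as targets of the repressor REST: the receptor genes GRIN1 and CHRM4, the channel and transporter genes SCN3B and SLC12A5, the CDK5 activator genes CDK5R1 and CDK5R2, the microtubule regulator STMN3, and SCAMP5, RUNDC3A and DISP2. They were picked by gene symbol from 18257 genes in a table of poly(A) RNA read counts, and all 10 were found. They were put together with their levels in all 5 libraries in view. Their own levels and differences are therefore a description, and no test is read from them.

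The libraries came from the HEK293 T-Rex FLAG:DICER1 FLP-IN line, an engineered human embryonic kidney cell line with a FLAG-tagged DICER1 construct, which the mock cells carry too. Cells were transfected with DICER1 siRNA 1 or 2, with DROSHA siRNA 1 or 2, or mock-transfected, and all 5 libraries are of 18 h. DICER1 encodes the cytoplasmic nuclease that cuts microRNA precursors and DROSHA the nuclear nuclease that acts before it. The mock is 1 library. The 2 libraries of each enzyme carry different siRNAs, so they are separate transfections, and their spread includes differences between the siRNAs. The labels do not say whether they came from separate cultures, so the spread may not cover that between cultures.

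REST is a zinc finger protein that binds a DNA element called RE1 and recruits histone deacetylases and demethylases through the corepressors SIN3A and RCOR1. In most cells outside the nervous system it keeps neuronal genes low, and its loss during neuronal differentiation goes with the onset of their expression. RE1 elements lie near the starts of target genes but also in introns and at other positions in the gene.

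The core of the RE1 element was looked for as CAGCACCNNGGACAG, in which 13 letters are fixed and the 2 letters N are free, on both strands of the GENCODE 29 transcripts of each gene. The sites are shown because they are the feature by which the 10 genes are known, and as known RE1 targets their matches are a description. Of the 10 genes, 4 held the core without a mismatch and 7 with at most 1 mismatch. Among 11619 tested genes outside the 10 and outside a list of other known RE1 targets, 0.275% held it without a mismatch and 4.3% with at most 1. Of the 65 genes on that list, 9.23% held it without a mismatch and 18.5% with at most 1. The longest transcript had a median of 4005 bases in the 10 genes and of 3824 bases in those tested genes. In the sites below, read 5′ to 3′ on the strand of the motif, capitals mark the core and lower case the 2 bases before and the 4 bases after it.
GRIN1: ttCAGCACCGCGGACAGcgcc
CDK5R2: ctCAGCACCTCGGACAGttcc
SLC12A5: ttCAGCACCGTGGACAGcggt
SCN3B: ctCAGCACCACGGACAGtcgc
RUNDC3A: ctCAGCACCTCGGAGAGctcc
CDK5R1: tgCAGAACCTTGGACAGaagc
STMN3: gcCAGCACCATGGCCAGcacc
On GRCh38, the build of the transcripts, the GRIN1 site lies at chr9:137139260-137139280 on the plus strand, in the 5′ UTR. The CDK5R2 site lies at chr2:218961977-218961997 on the minus strand, in the 3′ UTR, and the SLC12A5 site at chr20:46041074-46041094 on the minus strand, in an exon of a noncoding transcript of the gene. The SCN3B site lies at chr11:123654068-123654088 on the plus strand, opposite to the gene, in the 5′ UTR. The 3 sites with 1 mismatch lie at chr17:44308608-44308628 on the plus strand, in a noncoding transcript of RUNDC3A, at chr17:32486978-32486998 on the plus strand, in the 5′ UTR of CDK5R1, and at chr20:63653334-63653354 on the minus strand, at an end of the coding sequence of STMN3. A match is a run of letters and not a measured binding site. DISP2, CHRM4 and SCAMP5 had no match with at most 1 mismatch in their transcripts.

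For SCAMP5 the match lies ahead of the RefSeq start, within the gene as GENCODE 29 annotates it (chr15:74957219-75021496, plus strand). Promoter windows of 300 bases (250 before to 50 after the start, RefSeq, GRCh38.p14) were at hand for 7 of the 10 genes, and 2 of the 7 held the core with at most 1 mismatch, against 0.225% of 35116 windows. They were CDK5R1, with the site given above, and SCAMP5, whose window at chr15:74995313-74995612 on the plus strand is shown in full, with the core in capitals.
SCAMP5: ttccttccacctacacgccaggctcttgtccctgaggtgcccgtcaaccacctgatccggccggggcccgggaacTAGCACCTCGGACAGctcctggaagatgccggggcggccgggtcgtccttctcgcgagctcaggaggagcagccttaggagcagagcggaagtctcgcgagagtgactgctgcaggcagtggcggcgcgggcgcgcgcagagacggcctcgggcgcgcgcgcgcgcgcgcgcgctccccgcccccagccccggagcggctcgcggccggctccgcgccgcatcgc

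Total counts lay between 7620206 and 8736455 per library. DICER1 stood at 74.0 and 67.7 CPM (read counts scaled to a common library size, with edgeR's TMM factors) in the DICER1 siRNA libraries, against 242.91 CPM in the mock, and DROSHA at 41.2 and 41.9 CPM in the DROSHA siRNA libraries, against 191.33 CPM in the mock. The DICER1 siRNA libraries lay closer to each other than the DROSHA siRNA libraries: over 11931 genes, chi-square divided by its degrees of freedom was 2.62 for the DICER1 pair and 7.54 for the DROSHA pair. DROSHA siRNA 2 was also far from the mock, at 7.35, and from DICER1 siRNA 1 and 2, at 7.41 and 9.49. DROSHA siRNA 1 lay at 3.41 from the mock and at 3.56 and 5.80 from DICER1 siRNA 1 and 2. Values are therefore given for each library. All 7 markers fixed for the HEK293 line were at 1 CPM or more in the mock. The 12 markers of mature neurons summed to 32.1 to 33.2 CPM with DICER1 siRNA and 29.5 to 30.1 CPM with DROSHA siRNA, against 30.2 CPM in the mock. Of the 12, 4 were at 1 CPM or more in the mock: GAD1 at 20.4, RBFOX3 at 5.11, SYN1 at 1.78 and SLC17A7 at 1.43 CPM. GAD1 was thus most of the sum, which says little about the other markers. ELAVL4, NEUROD6 and SLC17A6 had no read in any library. In bulk RNA, a change in the share of cells with a transcript and a change in its level per cell cannot be told apart.

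Per kilobase of merged exons, STMN3 had the highest level of the 10 genes in the mock, with 21.6 CPM per kb. CDK5R1 followed with 6.98 and SCAMP5 with 5.51 CPM per kb, with overlapping counting intervals. GRIN1 stood at 0.689, RUNDC3A at 0.388, SCN3B at 0.352 and CHRM4 at 0.315 CPM per kb, and the counting intervals of these 4 overlap. CDK5R2 stood at 0.142, DISP2 at 0.103 and SLC12A5 at 0.0800 CPM per kb, again with overlapping intervals. Against a median of 40.4 CPM over all tested genes in the mock, only STMN3 of the 10 lay above it. Exon lengths come from GENCODE 29 and the counts from hg19, so these levels are approximate.

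All 10 genes stood higher in both DICER1 siRNA libraries than in the mock. The lowest log2 fold change was 0.32, in CDK5R1, and the highest 1.97, in CDK5R2, which entered the fit only through the DICER1 siRNA libraries. Their median was 0.96 (1.94-fold), beside 0.0005 over all 12234 tested genes. Without DICER1 siRNA 2 it was 0.485, over the 8 genes then tested, since CDK5R2 and CHRM4 drop out. Of all tested genes 36.7% were higher and 36.4% lower in both libraries. The 10 were chosen with these values in view, so nothing is read from the count. None of the 10 passed edgeR's quasi-likelihood test, in which 1 of 12234 genes (0.00817%), DICER1 itself, had an adjusted p under 0.05. At an unadjusted p under 0.05 there were 4 of the 10, all higher, where 5.46% of all genes had such a p, 2.48% higher and 2.98% lower. DESeq2 and the edgeR likelihood ratio test called 0 of the 10, where they called 5 and 29 of all tested genes.

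**Figure D1:**
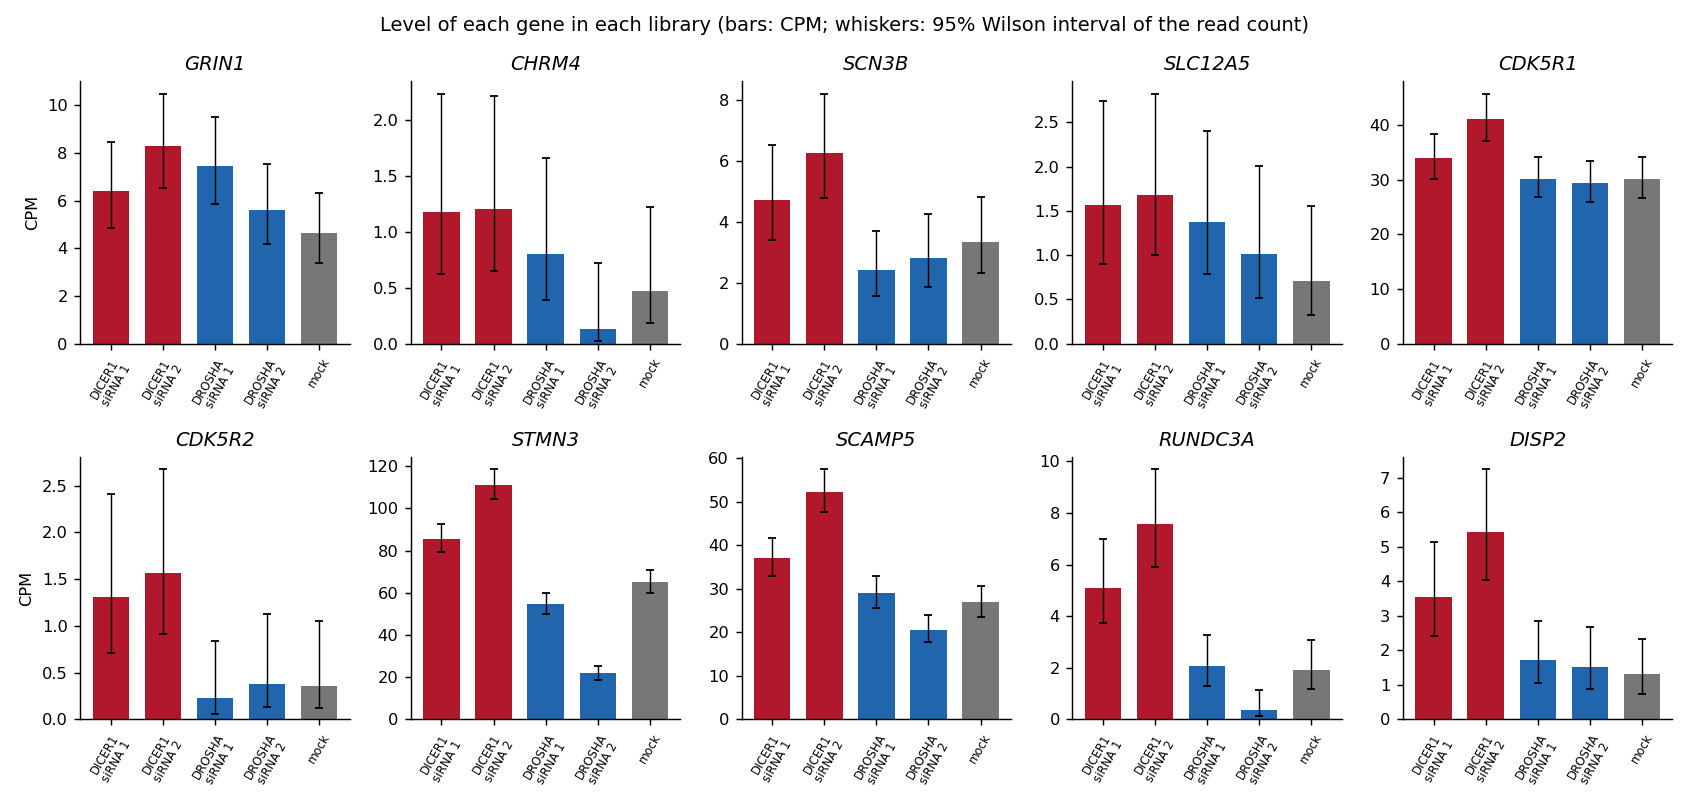
Level of each of the 10 genes in CPM (vertical axes, linear, each from 0) in the 2 DICER1 siRNA libraries (red), the 2 DROSHA siRNA libraries (blue) and the mock (grey), with 95% Wilson intervals of the read count. The DICER1 siRNA 2 bar is the highest in every panel, and in STMN3 and RUNDC3A the DROSHA siRNA 2 bar is far below that of DROSHA siRNA 1.

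Among the receptors, GRIN1 encodes the subunit that every NMDA-type glutamate receptor contains. It had 6.41 and 8.30 CPM in the DICER1 siRNA libraries and 7.46 and 5.61 CPM in the DROSHA siRNA libraries, against 4.63 CPM in the mock. The mock was the lowest library, while the DICER1 and DROSHA siRNA libraries overlapped. Its log2 fold change was 0.67 ± 0.30 (SE) for DICER1 siRNA against mock and 0.50 ± 0.30 for DROSHA siRNA against mock. Between DICER1 and DROSHA siRNA it was 0.17 ± 0.23, and the pooled reads gave a ratio of 1.12 with a 95% counting interval of 0.859 to 1.47. GRIN1 was the only one of the 10 in which the CPM values of these libraries overlapped. GRIN1 overlaps LRRC26 on the other strand, which had 2.35 and 2.40 CPM with DICER1 siRNA and 2.18 and 2.17 CPM with DROSHA siRNA, against 2.02 CPM in the mock. The counting is not stated to use strand, so reads in the overlap cannot be told apart.

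CHRM4 encodes a muscarinic acetylcholine receptor that couples to inhibitory G proteins. It had 9 and 10 reads in the DICER1 siRNA libraries and 7 and 1 in the DROSHA siRNA libraries, against 4 in the mock. In CPM this was 1.18 and 1.20 with DICER1 siRNA and 0.803 and 0.127 with DROSHA siRNA, against 0.475 in the mock. The DICER1 siRNA libraries were the highest, and the mock lay between the DROSHA siRNA libraries. The pooled ratio was 2.50 for DICER1 siRNA over mock, with a counting interval of 0.832 to 10.1 that includes 1, so a difference was not detectable at this depth. CHRM4 and CDK5R2 entered the fit only through the DICER1 siRNA libraries, which alone reached 1 CPM. A gene that enters in this way had to be higher there, and 0.188% of all tested genes did so.

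Of the channel and transporter genes, SCN3B encodes an auxiliary beta subunit of voltage-gated sodium channels. It had 4.71 and 6.25 CPM in the DICER1 siRNA libraries and 2.41 and 2.80 CPM in the DROSHA siRNA libraries, against 3.33 CPM in the mock. Both DICER1 siRNA libraries lay above the mock and both DROSHA siRNA libraries below it. On the log2 scale the differences were 0.72 ± 0.31 (SE) for DICER1 siRNA against mock, -0.36 ± 0.35 for DROSHA siRNA against mock and 1.08 ± 0.26 for DICER1 against DROSHA siRNA. The counting interval of the DROSHA siRNA to mock ratio, 0.474 to 1.30 around 0.780, includes 1. Without DICER1 siRNA 2 the DICER1 siRNA value was 0.502.

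SLC12A5 encodes the potassium chloride cotransporter of neurons that keeps chloride low in mature cells. It had 12 and 14 reads in the DICER1 siRNA libraries and 12 and 8 in the DROSHA siRNA libraries, against 6 in the mock. In CPM this was 1.57 and 1.68 with DICER1 siRNA and 1.38 and 1.02 with DROSHA siRNA, against 0.713 in the mock. All siRNA libraries lay above the mock. The pooled ratio was 2.28 for DICER1 siRNA over mock (counting interval 0.919 to 6.79) and 1.69 for DROSHA siRNA over mock (0.656 to 5.15). Neither interval excludes 1. For DICER1 over DROSHA siRNA the pooled ratio was 1.35, with a counting interval of 0.724 to 2.55 that also includes 1.

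CDK5R1 and CDK5R2 encode the activating subunits that the kinase CDK5 needs in neurons, where it acts in migration and at synapses. CDK5R1 had 34.0 and 41.1 CPM in the DICER1 siRNA libraries and 30.2 and 29.4 CPM in the DROSHA siRNA libraries, against 30.2 CPM in the mock. The DROSHA siRNA libraries lay at the mock level, and the DICER1 siRNA libraries above it. The log2 fold change was 0.32 ± 0.15 (SE) for DICER1 siRNA against mock and -0.02 ± 0.16 for DROSHA siRNA against mock. The pooled DROSHA siRNA to mock ratio was 0.988, with a counting interval of 0.847 to 1.15. Without DICER1 siRNA 2, the DICER1 siRNA value was 0.175.

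CDK5R2 was far lower, with 10 and 13 reads in the DICER1 siRNA libraries and 2 and 3 in the DROSHA siRNA libraries, against 3 in the mock. In CPM this was 1.31 and 1.56 with DICER1 siRNA and 0.229 and 0.382 with DROSHA siRNA, against 0.357 in the mock. Both DICER1 siRNA libraries had the highest values, but the counting intervals of single libraries overlap those of the mock. The pooled ratio was 4.04 for DICER1 siRNA over mock, with a counting interval of 1.22 to 21.0, and 4.77 for DICER1 over DROSHA siRNA, with an interval of 1.78 to 16.1. The fold is thus far less certain than that of CDK5R1, although its value is larger. CDK5R2 entered the fit only through the DICER1 siRNA libraries, so it had to be higher there. Nothing is therefore read from intervals that exclude 1.

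STMN3, a stathmin-family protein that destabilises microtubules in neurons, was the most abundant of the 10. It had 85.7 and 111.22 CPM in the DICER1 siRNA libraries and 54.8 and 21.8 CPM in the DROSHA siRNA libraries, against 65.4 CPM in the mock. Every DICER1 siRNA library lay above the mock and every DROSHA siRNA library below it, DROSHA siRNA 2 by far the most. The ratio to the mock was 0.839 in DROSHA siRNA 1 (counting interval 0.741 to 0.950) and 0.333 in DROSHA siRNA 2 (0.279 to 0.396). The log2 fold change was 0.59 ± 0.44 (SE) for DICER1 siRNA against mock and -0.76 ± 0.44 for DROSHA siRNA against mock, with the wide error set by the DROSHA pair. Without DROSHA siRNA 1 the comparison with the mock gave -1.59, and without DROSHA siRNA 2 it gave -0.25, each resting on a single DROSHA siRNA library.

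SCAMP5, a membrane protein of synaptic vesicles, had 37.0 and 52.3 CPM in the DICER1 siRNA libraries and 29.025 and 20.6 CPM in the DROSHA siRNA libraries, against 26.9 CPM in the mock. The mock lay between the DROSHA siRNA libraries and below the DICER1 siRNA libraries. The log2 fold change was 0.74 ± 0.27 (SE) for DICER1 siRNA against mock, -0.11 ± 0.27 for DROSHA siRNA against mock and 0.84 ± 0.22 for DICER1 against DROSHA siRNA. SCAMP5 overlaps RPP25 on the other strand, which had 5.89 and 4.69 CPM with DICER1 siRNA and 4.24 and 3.95 CPM with DROSHA siRNA, against 4.75 CPM in the mock.

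RUNDC3A encodes a RUN-domain protein of neurons that binds a Rap-family GTPase. It had 39 and 63 reads in the DICER1 siRNA libraries and 18 and 3 in the DROSHA siRNA libraries, against 16 in the mock. In CPM this was 5.10 and 7.57 with DICER1 siRNA and 2.07 and 0.382 with DROSHA siRNA, against 1.90 in the mock. DROSHA siRNA 1 lay at the mock level and DROSHA siRNA 2 below it, at a ratio of 0.201 to the mock with a counting interval of 0.0375 to 0.702. The log2 fold change was 1.74 ± 0.60 (SE) for DICER1 siRNA against mock. For DICER1 against DROSHA siRNA it was 2.32 ± 0.52, which became 4.01 without DROSHA siRNA 1 and 1.62 without DROSHA siRNA 2.

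DISP2 belongs to the Dispatched family, whose member DISP1 releases Hedgehog proteins from cells. It had 27 and 45 reads in the DICER1 siRNA libraries and 15 and 12 in the DROSHA siRNA libraries, against 11 in the mock. In CPM this was 3.53 and 5.41 with DICER1 siRNA and 1.72 and 1.53 with DROSHA siRNA, against 1.31 in the mock. The DICER1 siRNA libraries stood above the other 3, whose counting intervals overlapped. It differed on the log2 scale by 1.77 ± 0.44 (SE) for DICER1 siRNA against mock and 1.46 ± 0.33 for DICER1 against DROSHA siRNA. The pooled ratio to the mock was 3.45 with a counting interval of 1.82 to 7.22. Antisense noncoding genes overlap DISP2, CDK5R2, SLC12A5 and RUNDC3A in GENCODE 29 and have no row in the count table.

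Across the DROSHA siRNA libraries the 10 genes did not share a direction. DISP2, GRIN1 and SLC12A5 were above the mock in both, which 31.5% of all tested genes were, and CDK5R1, SCN3B and STMN3 were below it in both, as were 32.4% of all tested genes. The log2 fold changes ran from -0.76 to 0.75, with a median of -0.06 beside -0.005 over all tested genes. This median was 0.118 without DROSHA siRNA 2. None of the 10 passed edgeR's quasi-likelihood test, in which 0.00817% of genes were called, and none had an unadjusted p under 0.05 (3.69% of all genes). DESeq2 and the edgeR likelihood ratio test called 0 of the 10, where they called 1 and 3 of all tested genes. Both comparisons use the same mock library. CDK5R1, SCN3B and STMN3 were above it in both DICER1 and below it in both DROSHA siRNA libraries, as were 5.03% of all tested genes.

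The comparison of DICER1 with DROSHA siRNA leaves the mock out of the contrast. In 9 of the 10 genes, all except GRIN1, both DICER1 siRNA libraries lay above both DROSHA siRNA libraries, as did 20.9% of all tested genes, while 20% lay the other way. This compares CPM values, and for SLC12A5 the counting interval of the pooled ratio, 0.724 to 2.55, includes 1. The log2 fold changes ran from 0.17 to 2.32 with a median of 1.18, which was 0.734 without DROSHA siRNA 2. Without DICER1 siRNA 2 it was 0.713, over the 8 genes then tested, since CDK5R2 and CHRM4 drop out. In edgeR's quasi-likelihood test none of the 10 passed, where 0.0163% of genes did, and 7 had an unadjusted p under 0.05, all higher, where 8.34% of all genes had such a p and 4.02% were higher with it. DESeq2 called 24 of 12234 genes and 0 of the 10. The edgeR likelihood ratio test called 130 of 12234 genes and 6 of the 10: CDK5R2, DISP2, RUNDC3A, SCAMP5, SCN3B and STMN3. The genes were chosen on these same libraries, so nothing is read from these counts.

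The siRNAs against the same enzyme also differed from each other. All 10 genes were higher in DICER1 siRNA 2 than in DICER1 siRNA 1, where 50.4% of all tested genes were. The siRNA 2 to siRNA 1 ratio had a counting interval above 1 in SCAMP5, at a ratio of 1.41 (counting interval 1.21 to 1.65), in STMN3, at 1.30 (1.17 to 1.44), and in CDK5R1, at 1.21 (1.03 to 1.43), while for the other 7 the interval includes 1. In the DROSHA pair 8 of the 10 were lower in siRNA 2, all except CDK5R2 and SCN3B, where 50.2% of all tested genes were lower. There the ratio of siRNA 2 to siRNA 1 was 0.397 for STMN3 (0.332 to 0.474), 0.711 for SCAMP5 (0.580 to 0.869) and 0.185 for RUNDC3A (0.0349 to 0.634), and the other intervals include 1. In 5 of the 10, CDK5R1, CHRM4, RUNDC3A, SCAMP5 and STMN3, DICER1 siRNA 2 was the highest and DROSHA siRNA 2 the lowest of all libraries, as in 7.72% of all tested genes. These siRNA pairs hold the libraries the genes were chosen on, with 1 library per siRNA and no test.

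**Figure D2:**
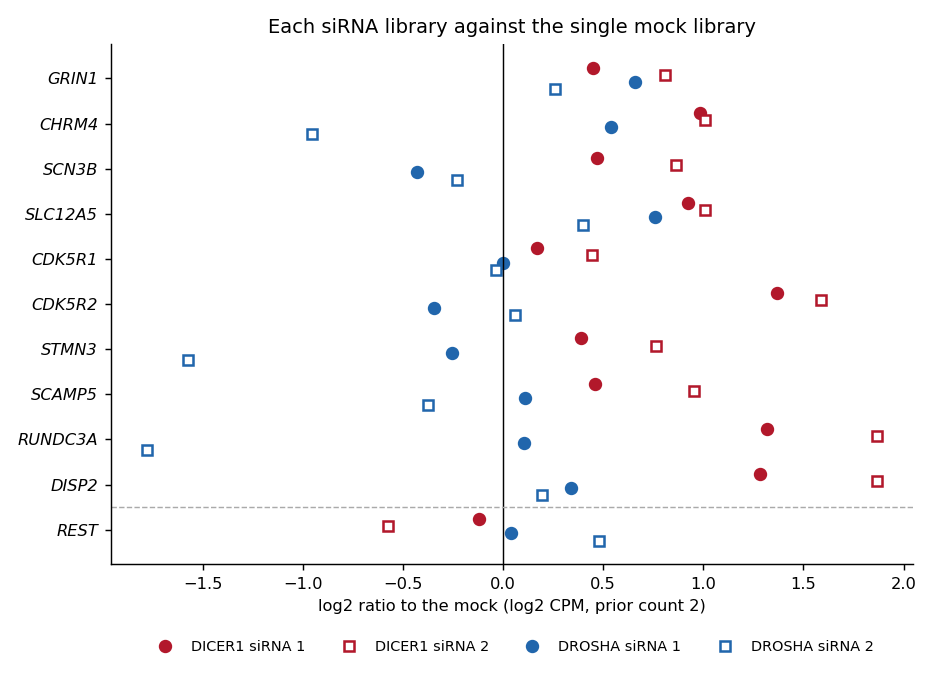
Log2 ratio of each siRNA library to the mock (horizontal axis, log2 CPM with a prior count of 2) for the 10 genes and, under the dashed line, REST. All red points, the DICER1 siRNA libraries, lie right of 0 for the 10 genes and left of it for REST, and the blue points, the DROSHA siRNA libraries, lie on both sides for the 10 genes and right of 0 for REST.

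REST itself, of which the 10 genes are known as targets, had 46.7 and 34.0 CPM in the DICER1 siRNA libraries. In the DROSHA siRNA libraries it had 52.2 and 70.8 CPM, against 50.7 CPM in the mock. Its lowest library was DICER1 siRNA 2, where the 10 genes summed to 236.6 CPM, and its highest was DROSHA siRNA 2, where they summed to 83.7 CPM. In DICER1 siRNA 1 the sum was 180.5 CPM, in DROSHA siRNA 1 it was 130.1 CPM, and in the mock 135.1 CPM. STMN3 was the largest single part of the sum except in DROSHA siRNA 2, where CDK5R1 was larger, and without STMN3 the other 9 genes summed to 94.8 and 125.4 CPM with DICER1 siRNA and 75.3 and 61.9 CPM with DROSHA siRNA, against 69.8 CPM in the mock. By CPM value, CDK5R1 and STMN3 had the order of the 5 libraries opposite to that of REST, as did 1.63% of all tested genes. For CDK5R1 the mock and DROSHA siRNA 1 were level, at 30.185 and 30.172 CPM. The REST ratio of DROSHA siRNA 1 to the mock was 1.03, with a counting interval of 0.899 to 1.18. The order of these libraries is thus within counting error, and nothing is read from it. The REST difference was -0.33 ± 0.24 (SE) on the log2 scale for DICER1 siRNA against mock, 0.28 ± 0.24 for DROSHA siRNA against mock and -0.61 ± 0.20 for DICER1 against DROSHA siRNA. The edgeR adjusted p values were 0.896, 0.979 and 0.523, so REST did not pass in any of them. Without DROSHA siRNA 1 the last difference was -0.82, which then rests on a single DROSHA siRNA library. The part of REST in the values of the 10 genes was not tested.

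**Figure D3:**
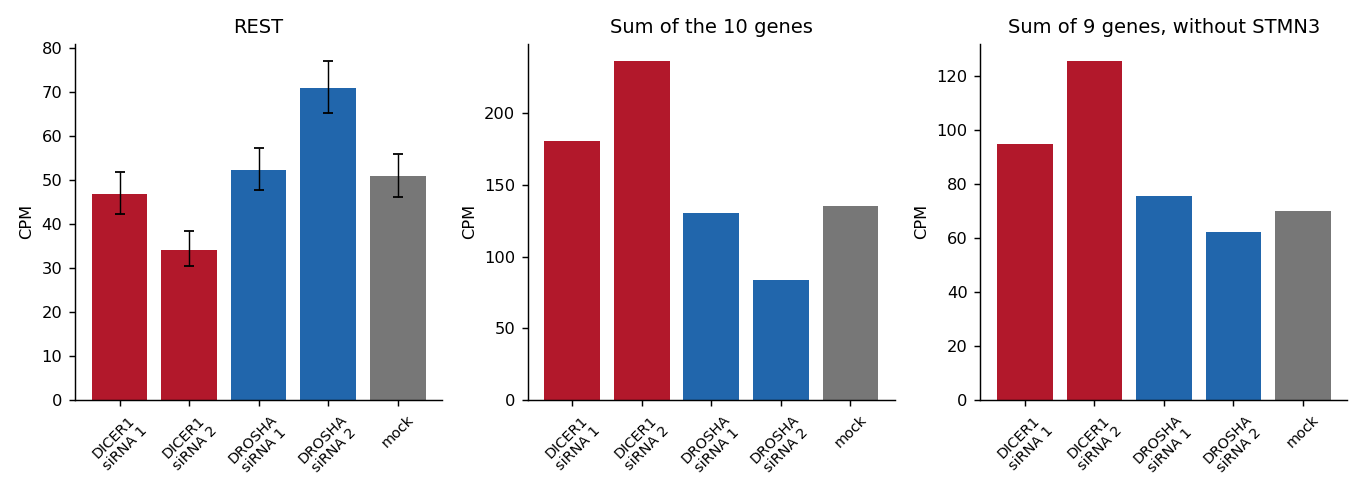
REST (left, with 95% Wilson intervals), the sum of the 10 genes (middle) and the sum without STMN3 (right), all in CPM on linear axes from 0, in the DICER1 siRNA (red), DROSHA siRNA (blue) and mock (grey) libraries. REST is lowest in DICER1 siRNA 2 at 34.0 CPM and highest in DROSHA siRNA 2 at 70.8 CPM, and both sums are highest and lowest in those same libraries, in the opposite order.

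Other genes known as RE1 targets were taken as a list of 65, of which 37 were tested. In DICER1 siRNA against mock their median log2 fold change was 0.50, beside 0.0005 over all tested genes, with 28 of 37 higher in both libraries and 5 lower, where 36.7% of all tested genes were higher and 36.4% lower. In DROSHA siRNA against mock the median was -0.10, with 5 higher and 17 lower in both libraries, beside 31.5% and 32.4% of all tested genes. In DICER1 against DROSHA siRNA it was 0.55, with 27 above and 2 below without overlap, beside 20.9% and 20% of all tested genes. No gene of the list passed edgeR's quasi-likelihood test in these comparisons. At an unadjusted p under 0.05, 16 were higher and 0 lower in DICER1 siRNA against mock, where 2.48% of all tested genes were higher and 2.98% lower. In DROSHA siRNA against mock 1 was higher and 1 lower (2.07% and 1.62% of all tested genes), and in DICER1 against DROSHA siRNA 21 were higher and 0 lower (4.02% and 4.32%). For DICER1 siRNA against mock DESeq2 called 2 of the list and 5 of all tested genes. The edgeR likelihood ratio test called 8 of the list and 29 of all tested genes. Earlier results on several of these genes were known when the list was written.

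Of that list, CPLX2, which clamps and promotes vesicle fusion, had 14.3 and 25.6 CPM in the DICER1 siRNA libraries and 3.10 and 2.42 CPM in the DROSHA siRNA libraries, against 2.97 CPM in the mock. SCG3, a secretory granule protein, had 12.4 and 19.0 CPM with DICER1 siRNA and 3.79 and 2.55 CPM with DROSHA siRNA, against 5.11 CPM in the mock. Both had their highest level in DICER1 siRNA 2 and their lowest in DROSHA siRNA 2, as the 5 genes named above did. UNC13A, which primes synaptic vesicles, had a log2 fold change of 1.72 ± 0.37 (SE) for DICER1 siRNA against mock and -0.73 ± 0.47 for DROSHA siRNA against mock. SLC6A9, a glycine transporter, differed from these 3 in standing above the mock in the DROSHA siRNA libraries as well, with 20.9 and 26.3 CPM with DICER1 siRNA and 16.3 and 13.9 CPM with DROSHA siRNA, against 9.39 CPM in the mock.

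The relatives of the 10 genes and the partners of their products showed smaller differences. Of 33 genes for REST and its corepressors and regulators, 31 were tested, with a median log2 fold change of -0.02 in DICER1 siRNA against mock and a range of -0.36 to 0.51. HDAC2, a histone deacetylase that REST complexes use, stood at -0.18 ± 0.08 (SE), and SIN3B, a scaffold of such complexes, at 0.16 ± 0.09. The splicing regulators PTBP1 and PTBP2 stood at -0.33 ± 0.17 and 0.51 ± 0.23. None passed the edgeR test, and none of the list had an unadjusted p under 0.05 in that comparison.

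Of 39 genes around CDK5, 37 were tested, with a median of 0.01 in DICER1 siRNA against mock, -0.03 in DROSHA siRNA against mock and 0.01 in DICER1 against DROSHA siRNA. NDEL1, a dynein regulator that CDK5 phosphorylates, had 60.04 and 66.7 CPM with DICER1 siRNA and 65.0 and 66.4 CPM with DROSHA siRNA, against 49.1 CPM in the mock. All its siRNA libraries lay above the mock and the DICER1 and DROSHA siRNA libraries overlapped, unlike those of CDK5R1. STAT3 stood at -0.39 ± 0.17, SYNJ1 at 0.32 ± 0.14 and MEF2D at 0.25 ± 0.12 on the log2 scale in DICER1 siRNA against mock, none past the edgeR test.

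Relatives of SLC12A5 were 11 tested cotransporters and their kinases, with a median of -0.05 in DICER1 siRNA against mock and none past an unadjusted p under 0.05. SLC12A9 stood at 0.21 ± 0.16 (SE), the kinase OXSR1 at -0.14 ± 0.10 and the kinase WNK3 at -0.25 ± 0.19. The 14 tested relatives of GRIN1 and CHRM4 had a median of 0.20. Among them GRIN2D, another NMDA receptor subunit, had 11 and 9 reads with DICER1 siRNA and 5 and 9 with DROSHA siRNA, against 3 in the mock. On the log2 scale GRIK4 stood at 0.83 ± 0.36, GRIK3 at 0.51 ± 0.33 and CHRNB1 at 0.49 ± 0.35. GRIK3, a kainate receptor subunit, had 11.1 and 16.1 CPM with DICER1 siRNA and 6.54 and 3.82 CPM with DROSHA siRNA, against 9.63 CPM in the mock.

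The 6 tested sodium channel relatives had a median of 0.25 in DICER1 siRNA against mock. SCN8A stood at 0.38 ± 0.17 (SE) on the log2 scale, SCN9A at -0.32 ± 0.31 and SCN11A at 0.57 ± 0.63. The 9 tested paralogs of the remaining genes had a median of 0.09. PTCHD2, a relative of DISP2, stood at 0.998 ± 0.30 and DISP1 at 0.39 ± 0.22, while RUNDC3B, the paralog of RUNDC3A, stood at -0.55 ± 0.18 and SCAMP1 at -0.30 ± 0.21. No relative passed the edgeR test in any of the 3 comparisons, and DESeq2 called none either. The likelihood ratio test called 1, GRIK3, in DICER1 against DROSHA siRNA, where it called 130 of all tested genes.

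**Figure D4:**
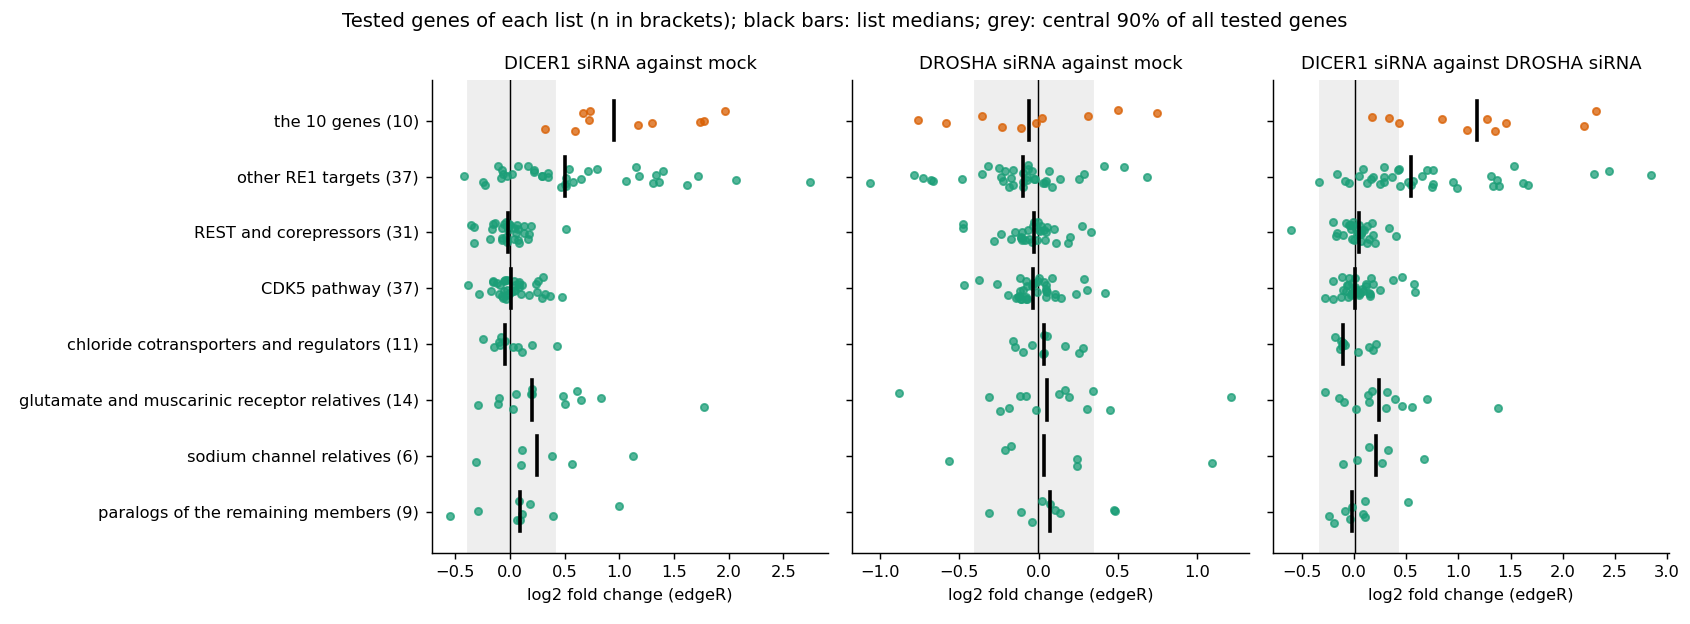
Log2 fold changes from edgeR (horizontal axes) of the tested genes of each list, for DICER1 siRNA against mock (left), DROSHA siRNA against mock (middle) and DICER1 against DROSHA siRNA (right), with list medians as black bars and the central 90% of all tested genes in grey. The 10 genes have medians of 0.96, -0.06 and 1.18 and the other RE1 targets 0.50, -0.10 and 0.55, while the medians of the remaining lists lie between -0.10 and 0.25.

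The 5 genes whose pattern lay closest to the median pattern of the 10 were sought among 10611 tested genes that averaged 5 CPM or more, by the Euclidean distance over the 4 log2 ratios of siRNA libraries to the mock. CACNA1B, a neuronal calcium channel subunit that is also on the list of other RE1 targets, was nearest at a distance of 0.191, with 12.8 and 14.4 CPM with DICER1 siRNA and 8.26 and 7.90 CPM with DROSHA siRNA, against 7.84 CPM in the mock. RAP1GAP, a GTPase activator of Rap proteins, followed at 0.237 and PHF21B at 0.238. WNT7B, a secreted ligand, lay at 0.299 and HCN3, a cation channel gated by hyperpolarisation, at 0.331. HCN3 had 19.1 and 28.4 CPM with DICER1 siRNA and 16.5 and 11.5 CPM with DROSHA siRNA, against 12.7 CPM in the mock.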

How the data were processed

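The authors deposited raw counts, one value per library for each of 18257 gene symbols, in 5 libraries; CASAVA 1.8.2, STAR, HTSeq, edgeR and hg19 are named per the submitters' processing notes, and the annotation and strand setting are not given in the sources used here. Columns were matched to samples by name, with 0 left unused. A gene was tested where 2 or more libraries reached 1 CPM (12234 genes, 99.9% of reads). edgeR 4.0.16 in R 4.3.3 was used with TMM scaling and its quasi-likelihood F test, with group as the only term, all 5 libraries in one fit and Benjamini-Hochberg adjustment over all genes. The mock is 1 library and is assumed to vary like the siRNA pairs. Standard errors are the log2 fold change over the square root of F. DESeq2 1.42.0 was an alternative, and the steps were tested on simulated data. Intervals (95%, Wilson for CPM, exact binomial for ratios of pooled reads) cover counting error only. No 2 libraries agreed within counting error, the lowest chi-square per degree of freedom being 2.62.

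The 10 genes, the lists and the tests were chosen with earlier results of these data known. Named genes are the 10, DICER1, DROSHA, REST, up to 4 genes of each list with the smallest p in DICER1 siRNA against mock, the 5 nearest patterns and genes overlapping a member. Some genes that this rule names are not reported here. RE1 cores were sought in GENCODE 29 transcripts of 17431 table genes and in RefSeq promoter windows; both are GRCh38 while the counts are hg19. The motif and its mismatch limit were set after the counts were seen.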

Additional observations from a re-analysis of the deposited data

Results flagged for a closer look

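In 3 of the 10 genes and in REST, the siRNA libraries of the 2 enzymes lay on opposite sides of the shared mock library. STMN3 was above the mock in both DICER1 siRNA libraries and below it in both DROSHA siRNA libraries, and the DICER1 to DROSHA siRNA difference was 1.35 on the log2 scale. SCN3B did the same with a difference of 1.08, and CDK5R1 with 0.34, where DROSHA siRNA 1 lay only 0.0006 below the mock (log2 ratio -0.0006). REST lay on the other sides, with a difference of -0.61, and the share of all tested genes on those sides was not counted. Of all tested genes, 5.03% were above the mock in both DICER1 and below it in both DROSHA siRNA libraries. Opposite sides of a single mock are not themselves a test, and none of the 4 differences passed the edgeR fit over all genes.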

How the results depend on the processing

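Of 293 log2 values of the 10 genes recomputed under other settings, 285 kept their sign. The exceptions were CHRM4, CDK5R2, SCAMP5, CDK5R1 and RUNDC3A in DROSHA siRNA against mock and GRIN1 in DICER1 against DROSHA siRNA. Of these, CHRM4 stood at 0.0202 with all libraries and at -1.78 without DROSHA siRNA 1, and RUNDC3A at -0.584 with all libraries and at 0.121 without DROSHA siRNA 2. The median of the 10 in DICER1 siRNA against mock was 0.671 over the 5 genes left by a 5 CPM filter and lay between 0.485 and 0.957 when a library was left out (8 of the 10 are tested without a DICER1 siRNA library, since CDK5R2 and CHRM4 drop out). In DROSHA siRNA against mock it lay between -0.145 and 0.118, and in DICER1 against DROSHA siRNA between 0.713 and 1.33, or 0.844 with the 5 CPM filter. Calls depended on the tool and library more than the values did. For DICER1 siRNA against mock the count of genes called was 1, and 3 without a filter, 5 with DESeq2, 29 with the likelihood ratio test and 0 to 5 with a library left out. For DROSHA siRNA against mock it was 1, and 3 with the likelihood ratio test and 1 to 225 with a library left out. For DICER1 against DROSHA siRNA it was 2, and 12 without a filter, 24 with DESeq2, 130 with the likelihood ratio test and 1 to 427 with a library left out. The counts of 225 and 427 came without DROSHA siRNA 1, while without DROSHA siRNA 2 they were 4 and 18.

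Of the 10 genes, 0 to 1 were called in DROSHA siRNA against mock and 0 to 3 in DICER1 against DROSHA siRNA with a library left out, and 6 in DICER1 against DROSHA siRNA with the likelihood ratio test. Of the other RE1 targets, 2 were called by DESeq2 and 8 by the likelihood ratio test in DICER1 siRNA against mock. In DICER1 against DROSHA siRNA they were 4 without a filter, 9 with DESeq2, 14 with the likelihood ratio test and 0 to 11 with a library left out. Of the CDK5 list, 0 to 2 were called in DROSHA siRNA against mock with a library left out, and in DICER1 against DROSHA siRNA 1 without a filter, 2 with the likelihood ratio test and 0 to 3 with a library left out. Of the REST and corepressor list 0 to 2, and of the glutamate and muscarinic relatives 0 to 1, were called in DICER1 against DROSHA siRNA with a library left out, and 1 of those relatives with the likelihood ratio test. The siRNA numbers of the 2 enzymes name different siRNAs and pair nothing (correlation of deviations over genes 0.0243). A replicate block on them gave 4 called genes, with 1 other RE1 target and 0 of the 10, at a median of 1.19. The cause of these differences was not tested. Levels of CHRM4, CDK5R2 and SLC12A5 rest on 14 reads or fewer per library.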
